A study of Mus musculus with 10 samples.

Results

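A set of 9 chemokine ligand genes that T cells can express was followed in RNA sequencing data: Xcl1, Ccl3, Ccl4, Ccl5, Ccl9, Ccl1, Ccl22, Cxcl9 and Cxcl10. They were chosen by gene symbol, and each of the 9 was found as a single entry among 57825 listed genes. All 10 samples were CD8+ T cells from spleens of female Balb/c mice, isolated with a magnetic bead kit, activated for 12 h on plates coated with anti-CD3 in the presence of IL-2 and anti-CD28, and grown for 48 h with 4T1 cells, a mouse mammary carcinoma line. In the CD8+4T1+NaAc group (n = 5) the T cells had been exposed to 5 mM sodium acetate (NaAc) for 24 h before the co-culture, and in the CD8+4T1 group (n = 5) they had not. The labels place every sample at day 3. Neither the labels nor the methods say whether the samples of a group came from different mice or cultures, or how the T cells were purified again after the co-culture, and p-values therefore measure only the spread between these samples.

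Chemokines are small secreted proteins that guide leukocytes through G protein-coupled receptors. Activated CD8+ T cells are known to release Xcl1, Ccl3, Ccl4 and Ccl5 together with interferon-gamma, and these proteins draw in cross-presenting dendritic cells, monocytes and further T cells. Cxcl9 and Cxcl10 are classical interferon-gamma targets that attract Cxcr3-bearing T cells, and they are made mostly by myeloid, stromal and epithelial cells. The comparison asked which of these ligand transcripts differed in abundance after acetate.

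Levels are given as FPKM, fragments scaled to the length of the gene and to the library's total, and can therefore be set side by side between genes. The totals were 16306447 to 17443395 fragments per sample without NaAc and 16503701 to 18853726 with NaAc, and fragments within listed genes made up 95.5% to 97.9% and 89.8% to 92.1% of these. Of the 15710 genes whose mean reached 0.5 FPKM, 36.5% were called between the groups at a limma adjusted p under 0.05, with 2764 higher and 2978 lower with NaAc. Every sample was also scaled to the same total FPKM over listed genes, which is a sum of length-scaled values and not a fragment total. This moved the median log2 change over the genes tested from -0.02 to 0.15 and the split to 4900 higher and 1387 lower. With T cell markers as the scale they became 0.23, 5781 and 939. The T cell markers were abundant in both groups, at a sum over 8 genes of 743.7 to 840.7 FPKM without NaAc and 685.9 to 747.4 FPKM with NaAc. None of the 8 was called higher and 5 were called lower (Cd3d, Cd3e, Cd3g, Cd2 and Lck), while Cd8a differed by -0.04 on the log2 scale (adjusted p = 0.559). Scaled to the same total, Cd2 lost its call (adjusted p = 0.341), and scaled to T cell markers only Cd3d and Cd3g of the 5 kept theirs. Under these scalings Cd8a (log2 fold change 0.14, limma adjusted p = 0.0475, and 0.21, adjusted p = 0.00688) and Cd8b1 (0.34, adjusted p = 0.0143, and 0.42, adjusted p = 0.00463) were called higher. The T cell marker scale is the geometric mean of these same 8 markers, so their changes under it offset each other by construction. Marker calls kept, lost or gained under that scale are descriptions only.

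The upstream sequences of ligands that were higher with NaAc are shown here because 2 groups of them sit side by side in the genome. Promoter windows were taken from RefSeq (GRCm38.p6), which listed 7 of the 9 ligands (Ccl1, Ccl3, Ccl9, Ccl22, Xcl1, Cxcl9 and Cxcl10). Each window holds the 250 bases before the gene's start, 5′ to 3′ on the gene's strand. Capitals mark matches to the kappaB motif, the interferon-stimulated response element core GAAANNGAA and the TATA motif TATAAA on either strand. Cxcl10 lies at chr5:92348890-92349139, Cxcl9 at chr5:92328080-92328329, Ccl9 at chr11:83578637-83578886 and Ccl3 at chr11:83649379-83649628, all on the minus strand.
Cxcl10: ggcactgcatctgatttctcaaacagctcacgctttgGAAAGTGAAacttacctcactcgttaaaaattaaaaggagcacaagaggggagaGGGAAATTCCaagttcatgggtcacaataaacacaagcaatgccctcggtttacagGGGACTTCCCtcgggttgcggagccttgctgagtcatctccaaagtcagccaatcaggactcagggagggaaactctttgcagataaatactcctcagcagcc
Cxcl9: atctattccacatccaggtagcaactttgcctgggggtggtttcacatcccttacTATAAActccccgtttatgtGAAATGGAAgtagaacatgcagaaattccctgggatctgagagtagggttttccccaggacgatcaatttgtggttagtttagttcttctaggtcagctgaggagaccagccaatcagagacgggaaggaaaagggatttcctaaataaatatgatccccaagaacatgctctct
Ccl9: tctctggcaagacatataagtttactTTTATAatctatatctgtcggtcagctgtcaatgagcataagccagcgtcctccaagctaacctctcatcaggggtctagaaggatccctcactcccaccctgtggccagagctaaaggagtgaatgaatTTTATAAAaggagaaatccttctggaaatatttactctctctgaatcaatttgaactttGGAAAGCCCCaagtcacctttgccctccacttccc
Ccl3: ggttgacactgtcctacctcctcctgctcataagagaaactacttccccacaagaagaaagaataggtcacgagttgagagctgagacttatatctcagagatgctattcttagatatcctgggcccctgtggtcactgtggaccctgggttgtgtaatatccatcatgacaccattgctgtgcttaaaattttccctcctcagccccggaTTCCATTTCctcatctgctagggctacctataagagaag

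The Cxcl10 window held 2 kappaB matches, beginning 159 and 103 bases before the start, and a response element core beginning 213 bases before it. The Cxcl9 window held the core 175 bases before the start and a TATAAA match 195 bases before it. In Ccl3 the core began 39 bases before the start, on the opposite strand. In Ccl9 a kappaB match began 35 bases before the start, and TATAAA matches on the 2 strands overlapped between 94 and 87 bases before it. Across the 7 windows, kappaB was found in 2 (3.9% of all 32851 listed windows), the core in 4 (7.13%), and TATAAA in 2 (12.4%). The interferon-gamma activated site TTCNNNGAA was found in 0 of 7 (7.02% of all), and the NFAT core GGAAA in 6 of 7 (55.6% of all). Some NFAT core matches lie within a kappaB match or overlap a response element core, and the NFAT core was not capitalised. The Xcl1 window (chr1:164935523-164935772, minus strand) held an NFAT core match and no match to the other motifs. These are matches of letters only, and binding was not measured.

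Of the 9 ligands, 8 passed the filter on low values and Ccl1 did not. Of the 8, 6 were called higher with NaAc (Xcl1, Ccl3, Ccl5, Ccl9, Cxcl9 and Cxcl10) and 0 lower, where 17.6% of all genes tested were called higher. The remaining 2, Ccl4 and Ccl22, were not called. Ccl5, Ccl9 and Cxcl9 also had a log2 fold change over 1, as did 4.87% of all genes tested. In the 6 called ligands the samples of the groups did not overlap, which held in this direction for 13.1% of all genes tested. The median log2 fold change over the 8 was 0.91 against -0.02 over all genes tested. Cxcl9 reached the filter only through its level with NaAc (mean 0.269 FPKM without and 1.38 FPKM with), so these counts describe the ligands that passed and are no support for a change of the group as a whole.

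**Figure D1:**
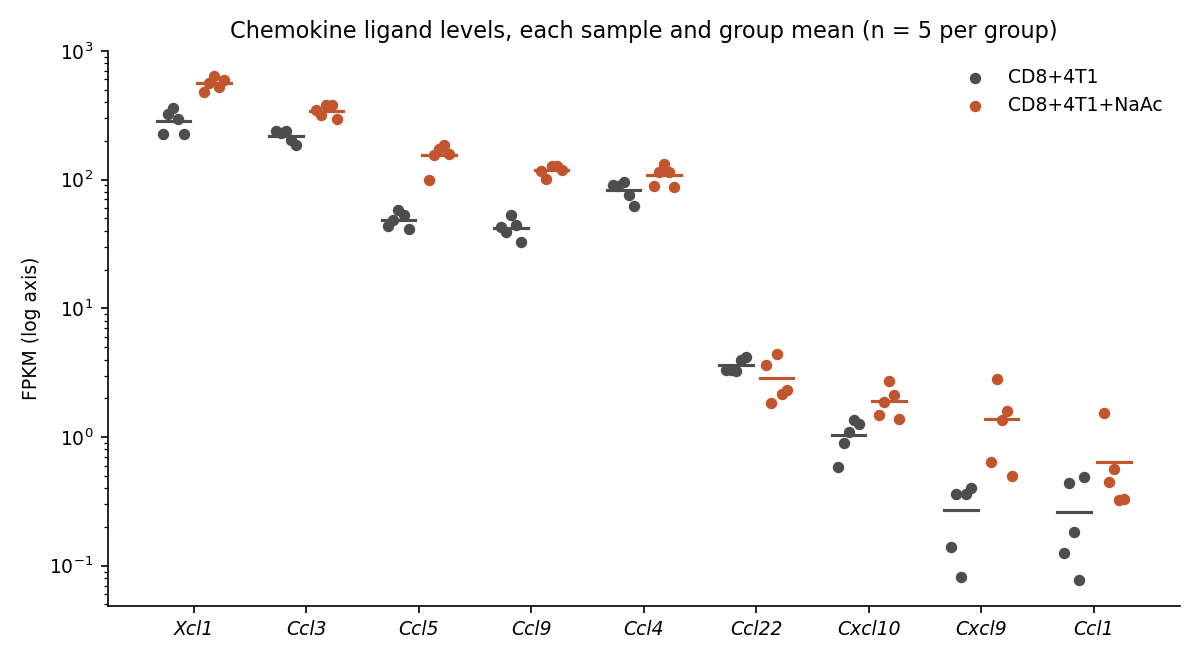
FPKM (log axis) of the 9 ligands in each sample, with CD8+4T1 in grey and CD8+4T1+NaAc in orange and lines at the group means (n = 5 each). Xcl1, Ccl3, Ccl5, Ccl9, Cxcl10 and Cxcl9 separate by group, while the Ccl4, Ccl22 and Ccl1 points overlap.

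Xcl1, the ligand of Xcr1 on cross-presenting dendritic cells, was the most abundant ligand in both groups by mean, although Ccl3 exceeded it in replicate 1 without NaAc. Without NaAc it measured 227, 320.2, 360.4, 298 and 225.1 FPKM in replicates 1 to 5. With NaAc it measured 478.6, 561.9, 637.8, 520.6 and 591.2 FPKM. Every sample with NaAc was above every sample without, and the means were 286.2 ± 59.2 and 558 ± 61.6 FPKM (SD, n = 5 each). The log2 fold change of Xcl1 was 0.98 (SE 0.14, 95% interval 0.68 to 1.29, limma adjusted p = 0.000348). Its receptor gene Xcr1 was near 0, at means of 0.0268 and 0.0730 FPKM. In these bulk samples, fewer cells of a type and less RNA per cell cannot be told apart.

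Ccl3, Ccl4 and Ccl5 are inflammatory ligands that attract monocytes and T cells, and Ccl3 and Ccl5 act through Ccr1. Ccl3 measured 240.3, 231.9, 237.8, 202.6 and 186.7 FPKM without NaAc and 347, 316.4, 379, 380 and 297.2 FPKM with NaAc. The groups of Ccl3 did not overlap, and its level rose 1.56-fold (log2 fold change 0.65, SE 0.09, 95% interval 0.44 to 0.86, limma adjusted p = 0.000445). Ccl4, its close relative, measured 90.41, 89.03, 95.7, 76.41 and 61.79 FPKM without and 89.86, 114.4, 133.2, 115.1 and 87.4 FPKM with NaAc. NaAc replicates 1 and 5 lay within the range of the samples without NaAc. The log2 fold change of Ccl4 was 0.38 (SE 0.14, 95% interval 0.06 to 0.70, limma adjusted p = 0.0600), just outside the threshold. Ccl4 was called when NaAc replicate 1 (0.45, adjusted p = 0.0364) or NaAc replicate 5 (0.46, adjusted p = 0.0368) was left out, and its adjusted p ran from 0.00751 to 0.133 over all alternatives.

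Ccl5, a ligand stored by effector and memory CD8+ T cells, showed the largest called difference among the abundant ligands. Its levels were 43.83, 48.85, 57.56, 53.23 and 40.97 FPKM without NaAc and 98.63, 155.1, 172.6, 186.6 and 156.8 FPKM with NaAc. The lowest sample with NaAc, replicate 1, was still above the highest without. Ccl5 rose 3.10-fold (log2 fold change 1.63, SE 0.16, 95% interval 1.27 to 1.99, limma adjusted p = 5.29e-05).

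Ccl9, a mouse ligand of Ccr1, measured 42.69, 39.01, 53.45, 43.99 and 32.82 FPKM without NaAc and 116.5, 100.7, 127.4, 127 and 119.4 FPKM with NaAc. The groups were far apart and the samples with NaAc were close together (118.2 ± 10.9 FPKM, SD, n = 5). Ccl9 rose 2.81-fold (log2 fold change 1.49, SE 0.12, 95% interval 1.23 to 1.75, limma adjusted p = 1.75e-05).

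Ccl22 and Ccl1 signal to Ccr4 and Ccr8, receptors found on regulatory and type 2 helper T cells. Ccl22 measured 3.321, 3.329, 3.244, 3.968 and 4.196 FPKM without NaAc and 3.597, 1.825, 4.43, 2.161 and 2.331 FPKM with NaAc. With NaAc the samples spread on both sides of the samples without. Its log2 fold change was -0.39 (SE 0.22, 95% interval -0.87 to 0.09, limma adjusted p = 0.189), and it was called lower when NaAc replicate 3 was left out (-0.56, adjusted p = 0.0377). Ccl1 rested on 3 to 19 fragments per sample without NaAc and 13 to 62 with. It measured 0.1263, 0.4356, 0.1812, 0.07685 and 0.486 FPKM without and 1.531, 0.4478, 0.5627, 0.3244 and 0.3304 FPKM with NaAc, and NaAc replicate 1 alone exceeded 1 FPKM. In the fit with no filter on low values the log2 fold change of Ccl1 was 0.99 (95% interval -0.04 to 2.01, limma adjusted p = 0.200). No difference was detected, and the part of depth in this was not tested. Ccl1 is listed with a span of 129034 bases and a gene length of 2369 bases, and reads of other transcripts in that span were not examined.

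Cxcl9 and Cxcl10, the ligands of Cxcr3, were present at low levels. Cxcl10 measured 0.5847, 0.891, 1.089, 1.347 and 1.265 FPKM without NaAc and 1.48, 1.861, 2.744, 2.126 and 1.39 FPKM with NaAc, from 22 to 102 fragments per sample. The groups met closely, with 1.347 FPKM as the highest without and 1.39 FPKM as the lowest with NaAc. Cxcl10 rose by 0.84 on the log2 scale (SE 0.24, 95% interval 0.31 to 1.37, limma adjusted p = 0.0191), and by 0.52 with a pseudocount of 1 FPKM, also called. Cxcl9 measured 0.1389, 0.3612, 0.08133, 0.3622 and 0.4018 FPKM without NaAc and 0.6399, 2.814, 1.366, 1.588 and 0.4991 FPKM with NaAc, from 4 to 160 fragments. Replicates 2, 3 and 4 with NaAc were high and replicates 1 and 5 were close to the samples without. The log2 fold change of Cxcl9 was 1.89 (SE 0.48, 95% interval 0.82 to 2.95, limma adjusted p = 0.0106). This value depends on the pseudocount at such low levels, since it was 0.83 with a pseudocount of 1 FPKM and 2.28 with 0.01 FPKM, called in each.

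**Figure D2:**
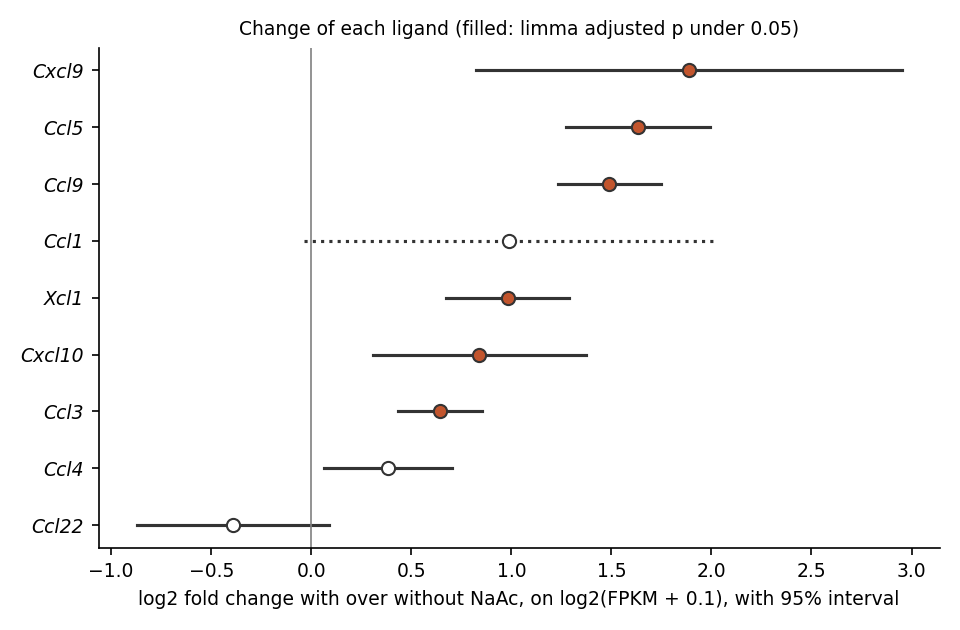
Log2 fold change of each ligand, with over without NaAc on the scale log2(FPKM + 0.1), with its 95% interval. Filled points passed a limma adjusted p under 0.05, and the dotted line is Ccl1 in the fit with no filter. The interval of Cxcl9 (0.82 to 2.95) is wide beside those of Ccl5 and Ccl9.

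Markers of epithelial or 4T1 cells moved with the groups. The sum of 10 such markers ran from 7.53 to 17.2 FPKM without NaAc and from 63.8 to 172 FPKM with NaAc, none was at 0 in every sample, and 5 of the 6 that could be tested were called higher (17.6% of all genes tested were), Krt7 and Cldn3 having passed the filter only through their level with NaAc. Krt8, a keratin of simple epithelia, went from 3.42 to 34.2 FPKM and Lcn2, a secreted lipocalin, from 3.99 to 40.2 FPKM. Within the groups, Cxcl9 followed this sum, with a Pearson r of 0.92 between deviations from the group means over the 10 samples, and Cxcl10 had r = 0.67. With the sum of T cell markers r was 0.56 for Xcl1, 0.55 for Ccl5, 0.55 for Cxcl10 and 0.41 for Ccl9, and from -0.34 to 0.07 for the other ligands. With the sum of myeloid markers it was 0.55 for Xcl1 and from -0.40 to 0.28 for the others. NaAc replicate 2 had the highest marker sum and the highest Cxcl9, and NaAc replicate 5 had the lowest of each among the samples with NaAc. For the more abundant ligands r with the epithelial or 4T1 sum was 0.21 for Ccl5, -0.12 for Xcl1, -0.36 for Ccl3 and -0.51 for Ccl9. These points share libraries, and the part of the epithelial or 4T1 signal in the ligand values was not tested.

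**Figure D3:**
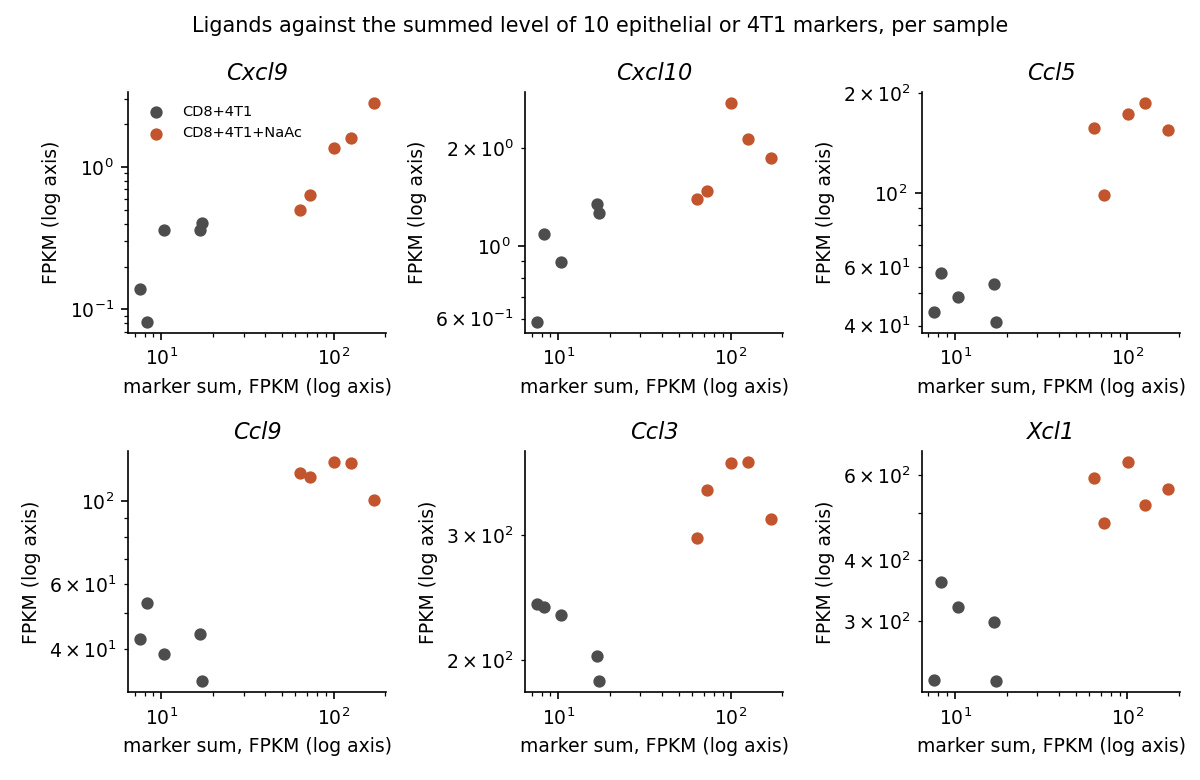
FPKM of 6 ligands against the summed FPKM of 10 epithelial or 4T1 markers, per sample, both on log axes, by group (n = 5 each). The marker sum separates the groups (7.53 to 17.2 against 63.8 to 172 FPKM), and within the groups Cxcl9 follows it (r = 0.92) while Ccl9 runs the other way (r = -0.51).

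Markers of myeloid cells were low or level. Their sum was 25.7 to 35.7 FPKM without NaAc and 27.8 to 32.0 FPKM with NaAc, mostly from Cd68. C1qb was at 0 in every sample and Csf1r was at or below 0.142 FPKM, while Lyz2 (0.536 to 1.12 FPKM) and Mpeg1 (0.905 to 1.83 FPKM) were called higher. The sum of dendritic cell markers was 18.9 to 22.6 FPKM without NaAc and 29.7 to 33.4 FPKM with NaAc, and most of this difference was in Cd74 (22.1 FPKM with NaAc). Cd74 and H2-Aa (0.151 and 1.05 FPKM) were called higher, H2-Aa passing the filter only through its level with NaAc. H2-Ab1 (log2 fold change -0.11), Zbtb46 (-0.12) and Itgax (0.07) were not called, and Siglech was at 0, with Flt3 and Clec9a near 0. Their part in the ligand results was not tested.

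The summed level of the 9 ligands went from 685.1 ± 95.5 to 1288.9 ± 118.4 FPKM (SD, n = 5 each) with no overlap. Xcl1 had the largest mean share of the sum, at 41.5% without and 43.3% with NaAc. The share of Ccl5 went from 7.15% to 11.9% and that of Ccl9 from 6.18% to 9.20%, and the share of Ccl4 from 12.1% to 8.34%, each without overlap. The share of Ccl3 was 32.3% and 26.8%, with overlapping samples. In the order of mean levels without NaAc, Xcl1 came before Ccl3, Ccl4, Ccl5, Ccl9, Ccl22, Cxcl10, Cxcl9 and Ccl1, and the ranges of Xcl1 and Ccl3, of Ccl5 and Ccl9, and of Cxcl9 and Ccl1 overlapped. With NaAc, Ccl5 and Ccl9 came before Ccl4, the ranges of these neighbours overlapped, and so did those of neighbours from Ccl22 down to Ccl1. These shares and orders are descriptions.

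**Figure D4:**
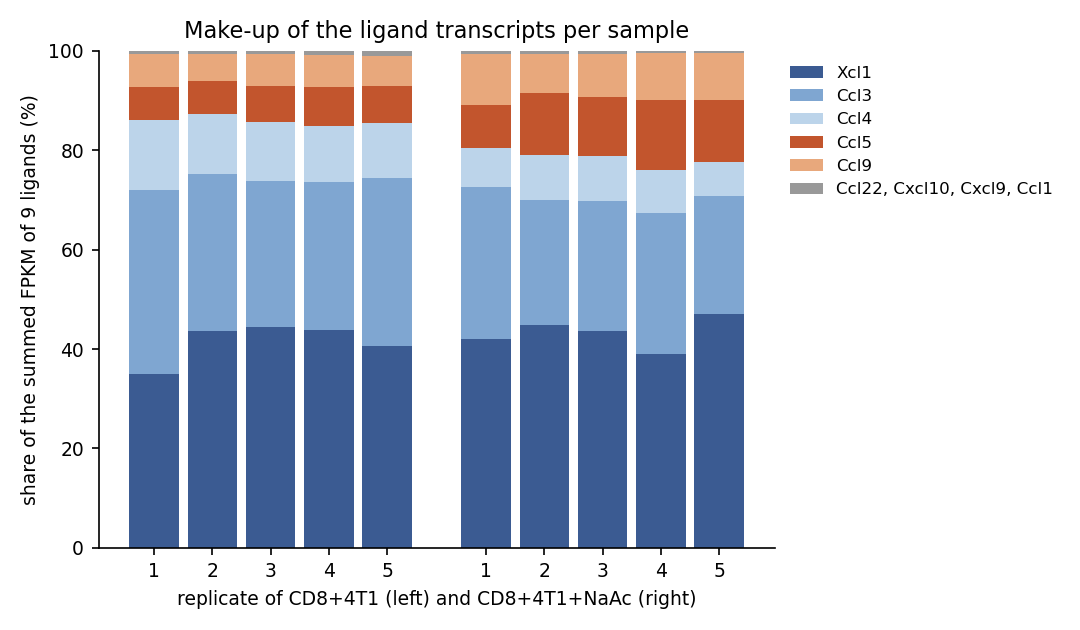
Share (%) of each ligand in the summed FPKM of the 9 ligands, with a bar per sample. The Ccl5 and Ccl9 segments are wider in every sample with NaAc, and the Ccl4 segment is narrower.

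Pairs of ligands were compared as ratios within each sample, with a two-sided exact permutation test over all 252 assignments of the group labels, for which the smallest possible p is 0.00794, and with adjustment over 3 ratios. The ratio of Ccl4 to Ccl5 was 1.44 to 2.06 without NaAc and 0.557 to 0.911 with NaAc, a log2 difference of -1.25 (exact p = 0.00794, adjusted p = 0.0238). The ratio of Cxcl9 to Cxcl10, neighbours on chromosome 5, was 0.0747 to 0.405 without and 0.359 to 1.51 with NaAc. Its log2 difference was 1.05 (exact p = 0.0159, adjusted p = 0.0238). With a pseudocount of 1 FPKM it was 0.32 and not called (exact test, adjusted p = 0.183). Cxcl9 passed the filter only through its level with NaAc, so this ratio is a description and no support for a change. The ratio of Ccl3 to Ccl4 was 2.48 to 3.02 and 2.77 to 3.86, a log2 difference of 0.26 (exact p = 0.0397, adjusted p = 0.0397). Only the ratio of Ccl4 to Ccl5 kept an adjusted p under 0.05 when any sample was left out. The ratio of Ccl3 to Ccl4 passed without CD8+4T1 replicate 5 or NaAc replicate 2 or 3, and lost its call without any of the 7 other samples. The ratio of Cxcl9 to Cxcl10 lost its call without CD8+4T1 replicate 1, 3 or 4.

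**Figure D5:**
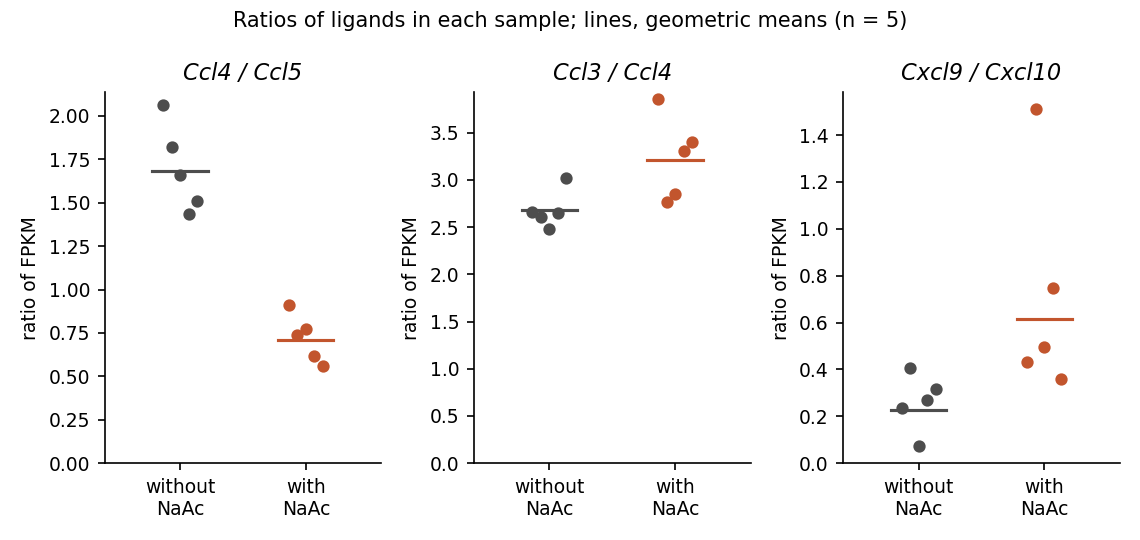
Ratio of FPKM in each sample for Ccl4 to Ccl5, Ccl3 to Ccl4 and Cxcl9 to Cxcl10, without and with NaAc, with lines at geometric means (n = 5 each). The Ccl4 to Ccl5 ratio separates the groups (1.44 to 2.06 against 0.557 to 0.911), and the others overlap.

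Ccl5, Ccl9, Ccl3 and Ccl4 lie together on chromosome 11 within 138.9 kb by the coordinates in the deposited table, whose build is not given in the sources used here. Ccl5 (83416604 to 83421344), Ccl9 (83463745 to 83469462) and Ccl3 (83538670 to 83540181) are on the minus strand and Ccl4 (83553410 to 83555509) on the plus strand. From Ccl5 to Ccl4 their log2 fold changes were 1.63, 1.49, 0.65 and 0.38. Ccl6, between Ccl9 and Ccl3, measured 0.315 and 1.23 FPKM with overlapping groups, a log2 difference of 1.45 (limma adjusted p = 0.0894). It passed the filter only through its level with NaAc, and was called when scaled to T cell markers (1.65, limma adjusted p = 0.0470). Under that scaling 5781 of all 15710 genes tested were called higher. Cxcl9 (92469206 to 92475938) and Cxcl10 (92494497 to 92496748) share 27.5 kb of chromosome 5. Genes on the opposite strand overlap Ccl3 (the lncRNA ENSMUSG00000120024, mean 1.47 FPKM), Xcl1 (Gm20743, 0.331 FPKM) and Cxcl10 (Art3, 0.0257 FPKM), and reads of such pairs cannot be told apart without a stated strand setting.

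Across samples, Ccl3 and Ccl4 deviated together, with a Pearson r of 0.81 between deviations from the group means over 10 samples. Over all pairs of the 9 ligands, r ran from -0.74 for Ccl1 and Ccl5 to this 0.81. Among the other pairs it was 0.66 for Ccl5 and Xcl1, 0.62 for Ccl3 and Ccl9, and 0.60 for Ccl4 and Ccl5. It was 0.53 for Cxcl9 and Cxcl10, and -0.57 for Cxcl9 and Ccl9. Among 7048 protein-coding genes averaging 5 FPKM or more, those most like Cxcl9 were Slpi (r = 0.98), Lcn2 (0.97) and Csf3 (0.96), and those most like Ccl5 were Ctsd (0.98), Lat (0.97) and Adam8 (0.97). Ccl9 was most like Slco4a1, Prf1 and Sele (0.89, 0.88 and 0.88), Xcl1 most like Rit1, Gm7879 and Zfp296 (0.95, 0.93 and 0.92), and Ccl3 most like Gga3, Gdap2 and Scimp (0.92, 0.91 and 0.90). Ccl4 was most like Cep76, Pank4 and Ankrd46 (0.92, 0.88 and 0.83), Ccl22 most like Ube2z, Irf8 and Asb7 (0.93, 0.90 and 0.89), and Cxcl10 most like Them6, Dpy19l1 and Uqcc2 (0.91, 0.87 and 0.86). These are descriptions over samples that share library depth and group.

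Among the receptors of these ligands, 6 were tested, and 3 were called higher and 1 lower. Of all genes tested, 17.6% were called higher and 19.0% lower. The receptor called lower is not reported here. Ccr8, the receptor of Ccl1, went from 0.956 to 2.73 FPKM (log2 fold change 1.46, adjusted p = 0.000338), and Ccr4, the receptor of Ccl22, from 12.5 to 21.4 FPKM (0.76, adjusted p = 0.00116). Ccr1, bound by Ccl3, Ccl5 and Ccl9, went from 0.358 to 0.784 FPKM (0.97, adjusted p = 0.0289), and it passed the filter on low values only through its level with NaAc. Cxcr3, bound by Cxcl9 and Cxcl10, measured 1.39 and 1.83 FPKM (0.36, adjusted p = 0.107), and was called higher when scaled to the same total (0.53, adjusted p = 0.0253) or to T cell markers (0.60, adjusted p = 0.0174). Ccrl2 was also called higher under these scalings (0.28, adjusted p = 0.0347, and 0.36, adjusted p = 0.0160). Over all 15710 genes tested, the 2 scalings called 4900 and 5781 higher, at median log2 fold changes of 0.15 and 0.23. These are all limma tests.

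Genes upstream of the ligands moved in several directions. Among genes of interferon-gamma input, Ifngr1, a chain of its receptor, was called higher by 0.46 on the log2 scale and Socs1, its feedback inhibitor, by 0.76, whereas Cd274, which encodes PD-L1, fell by 0.36 and was not called when scaled to T cell markers. Ifng itself measured 480.9 and 407.6 FPKM, a log2 difference of -0.27 (limma adjusted p = 0.243). Of 10 transcription factors, 0 were called higher and 4 lower, where 19.0% of all genes tested were called lower, as were 5 of the 8 T cell markers. Tbx21, which encodes T-bet, fell by 0.58, Irf4 by 0.55, Nfkb1 by 0.36 and Rela by 0.21 on the log2 scale. Scaled to T cell markers, Tbx21 and Irf4 kept their calls, Nfkb1 did not, and Rela turned to 0.04 (adjusted p = 0.700), while Nfatc2 was called higher (0.20, adjusted p = 0.0268). Under that scaling Jak1 (0.37), Irf1 (0.23) and Irf8 (0.20) of the interferon-gamma input were also called higher. So were 5781 of all 15710 genes tested, at a median log2 fold change of 0.23 over all of them. The calls gained under that scaling are therefore descriptions and no result about these genes.

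Of 5 genes of chemokine storage and cleavage, 4 were tested, 2 were called higher and 1 lower, beside 17.6% and 19.0% of all genes tested. Srgn, which encodes the proteoglycan serglycin that holds granule contents and chemokines, went from 379.1 to 231.1 FPKM and so fell by 0.71 on the log2 scale (limma adjusted p = 3.26e-05). Mmp9, a protease that trims chemokines, went from 1.45 to 13.9 FPKM (3.13, limma adjusted p = 9.05e-06), and Cpd, a carboxypeptidase, rose by 0.41 on the log2 scale. The 6 epithelial or 4T1 markers tested had a median log2 fold change of 2.96. The part of the epithelial or 4T1 signal in Mmp9 was not tested. Dpp4, which cleaves Cxcl10 and Ccl22, differed by 0.02 (limma adjusted p = 0.844), and was called higher when scaled to T cell markers (0.27, limma adjusted p = 0.0301). Under that scaling 5781 of all 15710 genes tested were called higher, at a median log2 fold change of 0.23 over all of them.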

How the data were processed

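RNA was measured in 10 samples, 5 per group. Per the labels and methods, the authors made libraries with the NEBNext Ultra kit and sequenced them on an Illumina NovaSeq. The submitters' processing notes name fastp, HISAT2 2.0.5, StringTie 1.3.3b and featureCounts 1.5.0-p3. Genome build, annotation and strand setting are not given in the sources used here. The authors deposited FPKM per gene with gene length, and no counts. FPKM multiplied by length gave whole fragments for 100% of values (tolerance 0.1).

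Groups came from the labels and columns from their names. Genes whose mean reached 0.5 FPKM were tested with limma 3.58.1 (R 4.3.3) on log2(FPKM + 0.1), with trend and robust moderation and Benjamini-Hochberg adjustment over all genes tested. Fold changes are on that scale and understate low genes. The test was checked on simulated data. Ratios of ligands were tested by exact permutation. All 9 ligands were named, with listed genes that were called, and the 3 genes most like each ligand that was tested. The members and gene lists were chosen with earlier results of these data known, and the response element core was added after the values were seen. Alternatives covered pseudocounts, filters, scalings, voom, the replicate block and samples left out. Some genes of the receptor and interferon-gamma lists are not reported here.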

Additional observations from a re-analysis of the deposited data

How the results depend on the processing

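The 6 called ligands kept their direction and call in all 21 alternatives that tested them, and Cxcl9 and Cxcl10 were not tested with a mean of at least 5 FPKM. Ccl4 gained a call with a mean of at least 5 FPKM, scaled to the same total or to T cell markers, with voom, with the replicate block (adjusted p = 0.0186), and with replicate 1 of both groups left out (adjusted p = 0.0425). Scaled to the same total or to T cell markers, 4900 and 5781 of all 15710 genes tested were called higher. The number of genes called was 3733 with a mean of at least 5 FPKM, where fewer genes were tested. Genes called in either direction with a log2 fold change over 1 numbered 1016, and 476 with a pseudocount of 1 FPKM and 203 with a mean of at least 5 FPKM.

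With a pseudocount of 1 FPKM the log2 ratio of Ccl3 to Ccl4 differed by 0.26 (exact test, adjusted p = 0.0595) and that of Cxcl9 to Cxcl10 by 0.32 (exact test, adjusted p = 0.183), and the cause was not tested. Same-numbered samples showed no sign of pairing (r of their deviations -0.03 to 0.07), and the labels and methods do not say whether they were paired. With the replicate block 5399 genes were called, and the ratio differences of 0.26, 1.05 and -1.25 each had an adjusted p of 0.0625, the smallest that 5 pairs allow in an exact test. With replicate 1 of both groups left out the ratio differences were 0.19, 1.20 and -1.27 (exact test, adjusted p = 0.114, 0.0857 and 0.0857). Leaving out each sample in turn gave 0.20 to 0.32 for Ccl3 to Ccl4 and 0.74 to 1.22 for Cxcl9 to Cxcl10. Ccl1, Cxcl9 and Cxcl10 rested on few fragments per sample (3 to 62, 4 to 160 and 22 to 102). The part of depth in their spread was not tested.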

Other observations

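Other chemokine ligands, from a list of 27, were tested for 13 genes, of which 4 were called higher and 0 lower with NaAc, where 17.6% of all genes tested were called higher, and 4.87% were called higher with a log2 fold change over 1. The neutrophil attractants Cxcl5 (4.45 to 42.9 FPKM, log2 fold change 3.25) and Cxcl1 (4.13 to 37.5 FPKM, 3.16) changed most, followed by the monocyte attractant Ccl2 (0.951 to 6.73 FPKM, 2.74) and the membrane-bound Cx3cl1 (0.572 to 4.28 FPKM, 2.67), by limma. The 6 epithelial or 4T1 markers tested had a median log2 fold change of 2.96. The part of the epithelial or 4T1 signal in these 4 ligands was not tested. Scaled to T cell markers, Ccl6 (1.65, limma adjusted p = 0.0470), Ccl25 (0.46, adjusted p = 0.031) and Cxcl16 (0.59, adjusted p = 0.00737) were also called higher. Cxcl16 was also called when scaled to the same total (0.52, limma adjusted p = 0.0148) and with the replicate block (0.35, adjusted p = 0.00662). Ccl8, Ccl12, Ccl19, Ccl24 and Cxcl15 were at 0 in every sample. Cxcl11, the third Cxcr3 ligand, was not tested, at means of 0.0636 and 0.193 FPKM.

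Among markers of other lymphocytes, 1 of 3 B cell markers (Cd79a) was tested and not called, none of the 2 NK cell markers was tested, and Cd4, at a mean of 0.541 FPKM without NaAc, was higher with NaAc by 1.44 on the log2 scale (limma adjusted p = 0.000317). The part of these markers in the ligand values was not tested.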
